A study of Homo sapiens with 12 samples.

Results

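Degron (++) and degron (−) cells were compared in 4 RNA sequencing libraries, 2 of each population, that carry the labels 4 Gy and 30 h, out of the 12 libraries of the study. Both populations derive from PANC-1, a human pancreatic cancer cell line, after retroviral infection with ZsGreen fused to the degron of ornithine decarboxylase. The proteasome degrades this fusion protein, so that green cells are read as cells of low proteasome activity. By the methods of the study, the infected line, in which few cells are green, is degron (−), and degron (++) is the greenest part of a line enriched from it by repeated sorting. Both populations thus carry the same reporter and were kept under G418 selection, but degron (++) had in addition been sorted and cultured repeatedly. Irradiation was with cesium gamma rays. The titles of the degron (−) libraries call the cells ZsGreen–, while their descriptions call them d+, the name the study gives to the enriched line before the last sort, so the labels are in conflict. Whether the 30 h ran from sorting or from irradiation is not given in the labels. In the methods of the study, irradiation followed sorting by 48 h. If that held for these libraries, 30 h counted from sorting would end before irradiation. No unirradiated library at 30 h was analysed here, so what separates the populations here cannot be divided into a part that was there before irradiation and a part that followed it. The other 8 libraries, at 48 h with 4 Gy or 0 Gy, were used for the spread between replicates and for the comparison of times.

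Cells that meet ionizing radiation hold the cycle at checkpoints while double-strand breaks are repaired. ATM and ATR signal the breaks, target genes such as CDKN1A are raised, and the G2/M checkpoint keeps damaged cells out of mitosis. Damaged epithelial cells also secrete cytokines and chemokines through NF-kB and interferon signalling, and they sit on a basement membrane of laminins and type IV collagen that they bind with integrins. The lists of genes described here follow these themes.

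Levels were given as FPKM, that is fragments per kilobase of exon, scaled to the mapped reads of each library. The files list 23284 gene symbols, of which 12520 were compared, those whose FPKM reached 1 or more in 2 or more of the 4 libraries. The sum of FPKM was 872142 to 908327 in the degron (++) libraries and 707273 to 754937 in the degron (−) libraries. Of this sum, 28.6% to 30.0% belonged to MIR622, a microRNA gene, in degron (++), and 22.5% to 23.3% in degron (−). FPKM hold no counts, so the number of reads behind a value is unknown. A log2 difference below is the mean log2(FPKM + 1) of degron (++) minus that of degron (−), given with its standard error (SE) and the Benjamini-Hochberg adjusted p of limma. It understates the change of genes with low FPKM. The threshold was an adjusted p under 0.05. The labels do not say that replicates came from separate cultures, so the p-values measure only the spread between these libraries, which may be technical.

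Both populations had the epithelial keratins of pancreatic ductal cells, while markers of other cell types differed between them. The 10 markers listed as ductal included KRT13, a keratin of stratified mucosa. They summed to 8068 and 8524 FPKM in degron (++) and to 4321 and 4472 FPKM in degron (−). Of the 10 markers, 9 were higher and 1 was lower in degron (++). Among the higher were the simple epithelial keratins KRT8 (log2 difference 0.61) and KRT18 (0.7). KRT19 had a log2 difference of 0.43 (SE 0.06, adjusted p = 0.000116), which was 0.03 (adjusted p = 0.58, limma) after quantile normalization. Markers of endothelial cells summed to at most 0.385 FPKM, with VWF and KDR at 0 in degron (++) and PECAM1 and TEK at 0 in degron (−). Those of acinar and endocrine cells summed to at most 0.316 FPKM, with INS and GCG at 0 in all 4 libraries. The 8 leukocyte markers summed to 4.52 to 6.49 FPKM in degron (++) and to 164 to 166 FPKM in degron (−), which was nearly all CD68, a lysosomal protein, with 163 and 165 FPKM, while PTPRC and CD3E were at 0 in degron (−). The 7 fibroblast markers summed to 14.7 to 15.4 FPKM in degron (++), mostly LUM, and to 37.6 to 37.7 FPKM in degron (−), mostly COL1A1, while FAP and DCN were at 0 in both populations. The 7 mesenchymal markers summed to 97.9 to 103 FPKM in degron (++) and to 2741 FPKM in degron (−), nearly all of it VIM. Their part in the other differences was not tested.

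Other checks of the labels were CDKN2A and the proteasome. CDKN2A encodes p16 and ARF and is known as deleted in PANC-1. It had 103 and 100.4 FPKM in the degron (++) libraries and 12.4 and 11 FPKM in the degron (−) libraries. Thus its transcript was detected in all 4 libraries, which does not match what is known of the line. In bulk samples it cannot be told whether all cells or a part of them gave the lower level in degron (−). Low activity of the proteasome defined degron (++). Of 30 tested subunits of the constitutive proteasome, 17 were higher and 11 lower in degron (++), with a median log2 difference of 0.17, but TPM rescaling turned the split to 11 higher and 15 lower with a median of -0.11. Only PSMC4, an ATPase subunit of the base, differed more than 2-fold, with 189.9 and 202 FPKM in degron (++) and 2213 and 2164 FPKM in degron (−), a log2 difference of -3.48 (SE 0.04, adjusted p = 8.13e-12). The catalytic subunit PSMB5 had a log2 difference of 0.28 (adjusted p = 0.00125, limma), which was -0.00 after TPM rescaling. No gene of the lid or core was past 2-fold. The level of a transcript is not a measure of proteasome activity.

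Most genes differed between the populations at 30 h. Of 12520 genes, 10070 (80.4%) passed the threshold, 4878 (39%) higher and 5192 (41.5%) lower in degron (++). A total of 3383 genes (27%) differed at least 2-fold, of which 1510 (12.1%) were higher and 1873 (15%) lower. With a background of this size, a gene that passes the threshold is not unusual, and the size of the difference says more than the call. The median log2 difference of all genes was -0.02. Rescaling each library to the same sum (TPM), in which MIR622 takes part, moved this median to -0.28 and the share of called genes that were higher from 48.4% to 33.1%. Differences of under about this size depend on the scaling for that reason.

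**Figure D1:**
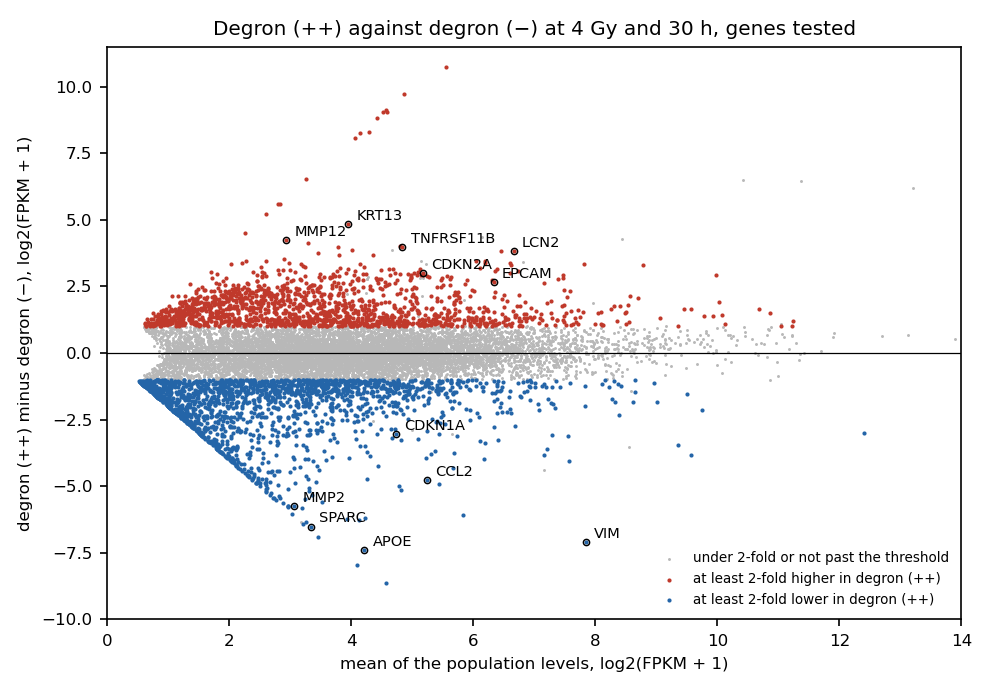
Each point is a gene tested. The x axis is the mean of the levels of both populations and the y axis the log2 difference between degron (++) and degron (−) cells at 4 Gy and 30 h, both on the log2(FPKM + 1) scale. Red and blue points differ at least 2-fold past the threshold, and the labelled genes include VIM, at -7.12, and KRT13, at 4.85. The unlabelled red points above 5 are small nucleolar RNA and microRNA genes.

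With small RNA genes left out, the largest rise in degron (++) was that of KRT13. KRT13, a keratin of stratified mucosa, had 81.3 and 80.7 FPKM in degron (++) and 1.33 and 2.47 FPKM in degron (−), a log2 difference of 4.85 (SE 0.23, adjusted p = 2.99e-08). The next were MMP12, an elastase, NMU, which encodes the neuropeptide neuromedin U, and the insulin-like growth factor binding proteins IGFBP3 and IGFBP7. IGFBP3 had 114 and 108 FPKM against 6.23 and 5.67 FPKM. TNFRSF11B, the decoy receptor osteoprotegerin, ELF3, an epithelial transcription factor, SPOCK2, a matrix proteoglycan, LCN2, the iron-binding protein lipocalin, and OLR1, a receptor for oxidized low-density lipoprotein, followed. Their log2 differences lay between 3.77, for OLR1, and 3.98, for TNFRSF11B. In each of these 10 genes both degron (++) libraries lay above both degron (−) libraries, which was part of how they were chosen. Of all genes, 90.2% had libraries that did not overlap between the populations, so a lack of overlap is the rule here.

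The 10 largest falls past the same filters included VIM, SPARC and APOE. VIM, the intermediate filament of mesenchymal cells, had 19.2 and 17.8 FPKM in degron (++) and 2709 and 2711 FPKM in degron (−), a log2 difference of -7.12 (SE 0.07, adjusted p = 5.85e-12). SPARC, a matrix glycoprotein, had 0.086 and 0.025 FPKM against 91.7 and 100.4 FPKM, and APOE, the lipid carrier, 0.595 and 0.26 FPKM against 246 and 236 FPKM. MT1L, a metallothionein gene that can share reads with its near-identical relatives, was listed at 0 and 0.386 FPKM in degron (++) and 477 and 461 FPKM in degron (−). CD70, a ligand of the tumor necrosis factor family, and IGFBP2 were listed at 0 in both degron (++) libraries, with 119 and 119.8 FPKM and 87.3 and 82.5 FPKM in degron (−). PPP1R14A, PLEKHG2, FBXO17 and LXN completed the list, each at no more than 1.21 FPKM in degron (++) and at least 130.3 FPKM in degron (−).

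The mesenchymal markers did not all lie on one side. The junction protein CDH1 (E-cadherin) had 65.7 and 64.5 FPKM in degron (++) and 6.56 and 6.79 FPKM in degron (−), a log2 difference of 3.11 (SE 0.05, adjusted p = 4.9e-11). EPCAM, the epithelial adhesion molecule, had 201 and 205 FPKM against 29.9 and 31.9 FPKM, and KRT7, a ductal keratin, 1437 and 1328 FPKM against 133 and 144 FPKM. Of the 5 tested mesenchymal markers, 3 were lower in degron (++), among them the repressor of E-cadherin ZEB1, with 0.067 and 0.045 FPKM against 9.84 and 9.14 FPKM. The other two were higher: CDH2 (N-cadherin) had 44.9 and 45 FPKM in degron (++) and 4.74 and 5.16 FPKM in degron (−), and SNAI2, another repressor of E-cadherin, 35.7 and 31.6 FPKM against 8.14 and 7.44 FPKM. TWIST1 was listed at 0 in all 4 libraries. The libraries of the populations did not overlap in CDH1, EPCAM, KRT7, ZEB1, CDH2 and SNAI2, as in 90.2% of all genes.

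Genes of the cell cycle differed less often by 2-fold than all genes. Of 114 genes of the G1, S phase and G2/M lists, 81 (71.1%) passed the threshold, against 80.4% of all genes, and 10 (8.77%) differed at least 2-fold, against 27%. Altogether 43 were higher and 38 lower in degron (++), with a median log2 difference of 0.04, and TPM rescaling turned this to 28 higher and 62 lower with a median of -0.23. Hence the split between the directions depends on the scaling for this theme.

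In the list of G1 cyclins, kinases and inhibitors, 9 of 26 genes were higher and 10 lower in degron (++), and 7 (26.9%) differed at least 2-fold, against 27% of all genes. CDKN1A (p21), a kinase inhibitor that is raised after damage, had 8.92 and 7.55 FPKM in degron (++) and 75.8 and 74.8 FPKM in degron (−). It was 9.14-fold higher in degron (−) by the ratio of means, a log2 difference of -3.05 (SE 0.09, adjusted p = 1.15e-09). CDKN2C (p18), an inhibitor of CDK4 and CDK6, was lower too, with 7.73 and 5.49 FPKM against 36.7 and 38.7 FPKM. The inhibitors of the INK4 locus went the other way. CDKN2A, with the values above, had a log2 difference of 3.02 (SE 0.09, adjusted p = 1.81e-09), and its neighbour CDKN2B (p15) had 10.6 and 9.79 FPKM in degron (++) and 0.907 and 1.07 FPKM in degron (−), a log2 difference of 2.49 (SE 0.11, adjusted p = 1.62e-08). CDKN1B (p27) was higher in degron (++), with 29.6 and 28.7 FPKM against 13.3 and 13.8 FPKM. In these 5 inhibitors the libraries of the populations did not overlap, as in 90.2% of all genes.

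Of the cyclins in the list, CCND1 had 102 and 102 FPKM in degron (++) and 103 and 111 FPKM in degron (−). Its log2 difference of -0.07 (SE 0.05, adjusted p = 0.227, limma) did not pass the threshold. CCND2 had 5.41 and 6.3 FPKM against 0.525 and 0.659 FPKM and was higher, by 2.1 on the log2 scale. The kinase CDK6 was lower, at 6.02 and 6.52 FPKM against 17.6 and 17.7 FPKM. E2F1, which drives entry into S phase, had 35.7 and 35.4 FPKM against 46.9 and 49.9 FPKM, a log2 difference of -0.43 (SE 0.06, adjusted p = 9.9e-05). So within a pathway of a few steps, members lay on both sides.

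Among 43 genes of DNA replication and S phase, 21 were higher and 8 lower in degron (++), with a median log2 difference of 0.18. TPM rescaling gave 13 higher, 19 lower and a median of -0.10, which was still above the median of all genes of -0.28. The largest rises were RFC3, a subunit of the clamp loader, with 70.7 and 71.2 FPKM in degron (++) and 29.3 and 29.6 FPKM in degron (−), and CDC6, which licenses origins, with 60.7 and 64.6 FPKM against 27.3 and 28.1 FPKM. The clamp PCNA had 339 and 341 FPKM against 202 and 204 FPKM, a log2 difference of 0.74 (SE 0.04, adjusted p = 9.14e-08), and the ligase LIG1 had one of 0.84. The helicase subunits were uneven: MCM4 had a log2 difference of 0.84, whereas MCM2 had 102 and 103 FPKM against 97 and 103 FPKM, overlapping values with a log2 difference of 0.04 that turned to -0.25 (adjusted p = 0.000693, limma) after TPM rescaling. RRM2, the subunit of ribonucleotide reductase that limits the supply of deoxynucleotides, was the largest fall, with 109 and 107 FPKM against 265 and 268 FPKM and a log2 difference of -1.29 (SE 0.03, adjusted p = 4.09e-10).

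No gene of the G2/M and mitosis list differed 2-fold. Of 45 genes, 13 were higher and 20 lower in degron (++), with a median log2 difference of -0.08. CCNB1 (cyclin B1) had 301 and 305 FPKM in degron (++) and 218 and 214 FPKM in degron (−), a log2 difference of 0.49 (SE 0.05, adjusted p = 1.28e-05). Its kinase CDK1 had 101 and 106 FPKM against 104 and 109 FPKM, and these overlapped, with a log2 difference of -0.04 (SE 0.04, adjusted p = 0.44). PLK1, a mitotic kinase, had a log2 difference of -0.08 (SE 0.04, adjusted p = 0.131). The proliferation marker MKI67 was lower in degron (++), with 57.6 and 60.02 FPKM against 77.1 and 73.7 FPKM, and the inhibitory kinase WEE1 was lower as well, with 16.2 and 17 FPKM against 20.8 and 22.8 FPKM. The widest differences were those of the phosphatase CDC25B (0.94) and the kinase PBK (0.93), which were higher, and of the checkpoint kinase BUB1 (-0.85) and the kinetochore protein CENPF (-0.63), which were lower. TOP2A had a log2 difference of 0.36 (adjusted p = 0.000264, limma), which was 0.08 (adjusted p = 0.431, limma) after TPM rescaling.

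**Figure D2:**
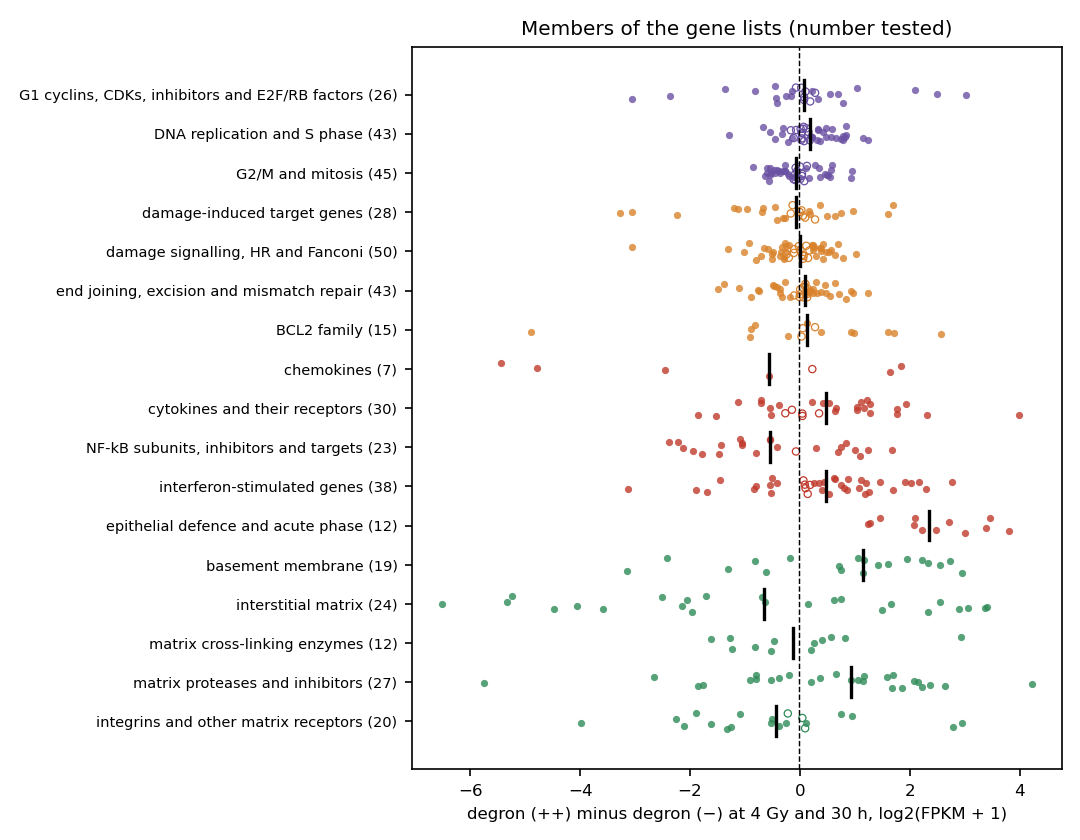
Each point is a gene of a list, placed by its log2 difference between degron (++) and degron (−) cells at 4 Gy and 30 h. Filled points passed the threshold and open points did not. The black bar is the median of the list and the dashed line the median of all genes tested, -0.02. The G2/M list lies within 1 on either side, while the points of the inflammation and matrix lists reach from -6.52, for SPARC, to 4.24, for MMP12.

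The lists of the DNA damage response differed less in size than the genome as a whole. Of 133 tested genes of 138 listed, 103 (77.4%) passed the threshold, against 80.4% of all genes, and 19 (14.3%) differed at least 2-fold, against 27%. There were 52 higher and 51 lower in degron (++), and after TPM rescaling 28 higher and 67 lower.

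Of 28 tested target genes that damage is known to induce, 9 were higher and 12 lower in degron (++), with a median log2 difference of -0.07. GDF15, a secreted stress cytokine, had 0.972 and 0.339 FPKM in degron (++) and 13.8 and 15.7 FPKM in degron (−), a log2 difference of -3.27 (SE 0.19, adjusted p = 1.28e-07), and CDKN1A was described above. PERP, a junction protein linked to apoptosis, had 38.2 and 36.9 FPKM against 178 and 184 FPKM, and GADD45A, which acts in growth arrest and repair, 26.5 and 24.5 FPKM against 44.3 and 39.4 FPKM. These 4 genes were lower in degron (++). The unirradiated libraries at 48 h gave log2 differences of -3.12 for GDF15, -2.05 for PERP and -0.75 for GADD45A, and of 1.73 for PLK2, described next. These are thus not shown to be differences in the response to 4 Gy. Other targets did not go along. PLK2, a kinase of the stress response, had 228 and 215 FPKM in degron (++) and 66.4 and 69.8 FPKM in degron (−), a log2 difference of 1.69 (SE 0.05, adjusted p = 1.8e-09), and SFN, which encodes the checkpoint protein stratifin, was higher by 0.98 on the log2 scale. MDM2, a ubiquitin ligase, had 9.62 and 10.1 FPKM against 10.8 and 11 FPKM, a log2 difference of -0.13 (SE 0.06, adjusted p = 0.0657). BAX, which permeabilizes mitochondria, had 88.5 and 73.4 FPKM against 84.4 and 73.8 FPKM, which overlapped, and its difference of 0.03 turned to -0.25 (adjusted p = 0.0527, limma) after TPM rescaling.

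Genes that signal and repair breaks were near balance. In the list of damage signalling, homologous recombination and Fanconi anaemia, 18 of 50 genes were higher and 20 lower in degron (++), with a median log2 difference of -0.00. The kinase ATM was lower, with 5.75 and 5.7 FPKM against 9.77 and 9.49 FPKM, a log2 difference of -0.66 (SE 0.07, adjusted p = 1.46e-05), while ATR had 9.3 and 9.53 FPKM against 9.97 and 9.16 FPKM, which overlapped. The checkpoint kinases CHEK1 and CHEK2 had log2 differences of -0.33 and -0.2, and the second did not pass the threshold without degron (−) replicate 2 (adjusted p = 0.0556, limma). The adaptors MDC1 and TP53BP1, which gather at breaks, were lower in degron (++), with 6.53 and 6.86 FPKM against 18 and 18.1 FPKM for MDC1 and 13 and 13.1 FPKM against 27 and 27.6 FPKM for TP53BP1. BRCA1, which directs breaks to recombination, was higher, with 14 and 12.8 FPKM against 5.78 and 6.28 FPKM and a log2 difference of 1.03 (SE 0.07, adjusted p = 3.97e-07).

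Of 43 genes of end joining, excision and mismatch repair, 18 were higher and 14 lower in degron (++), with a median log2 difference of 0.10. The end-joining factors XRCC5 (Ku80) and PRKDC and the break sensor PARP1 had log2 differences of 0.18, 0.12 and 0.18, which TPM rescaling turned to -0.10, -0.16 and -0.10, none of them past the threshold, so no direction holds for these 3 genes. Larger differences were seen for ERCC1, part of a nuclease of excision repair, with 29.98 and 28.4 FPKM in degron (++) and 85.2 and 83 FPKM in degron (−), and for the glycosylases MPG and OGG1, with log2 differences of -1.38 and -1.1. These 3 genes were lower in degron (++). POLM, a polymerase of end joining, was higher, with 20.5 and 22.2 FPKM against 8.47 and 8.35 FPKM. MGMT, which repairs alkylated guanine, was lower, with a log2 difference of -0.49 (SE 0.12, adjusted p = 0.00445).

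In the BCL2 family, 7 of 15 tested genes were higher and 5 lower in degron (++). Of the members that protect from apoptosis, BCL2A1 was listed at 0 in both degron (++) libraries and had 27.9 and 29.6 FPKM in degron (−). BCL2L1 (BCL-XL) had 78.8 and 77.5 FPKM against 147 and 147 FPKM, a log2 difference of -0.90 (SE 0.05, adjusted p = 4.92e-08), and MCL1 had one of 0.14 that turned to -0.14 (adjusted p = 0.0795, limma) after TPM rescaling. Of the members that promote it, BIK had 23.8 and 23.8 FPKM in degron (++) and 2.65 and 3.8 FPKM in degron (−), PMAIP1 (NOXA) 15.4 and 15.6 FPKM against 3.84 and 4.29 FPKM, and HRK 2.17 and 2.41 FPKM against 0.161 and 0 FPKM. These 3 genes were higher in degron (++), with log2 differences between 1.61 and 2.57. Their libraries did not overlap between the populations, as in 90.2% of all genes.

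**Figure D3:**
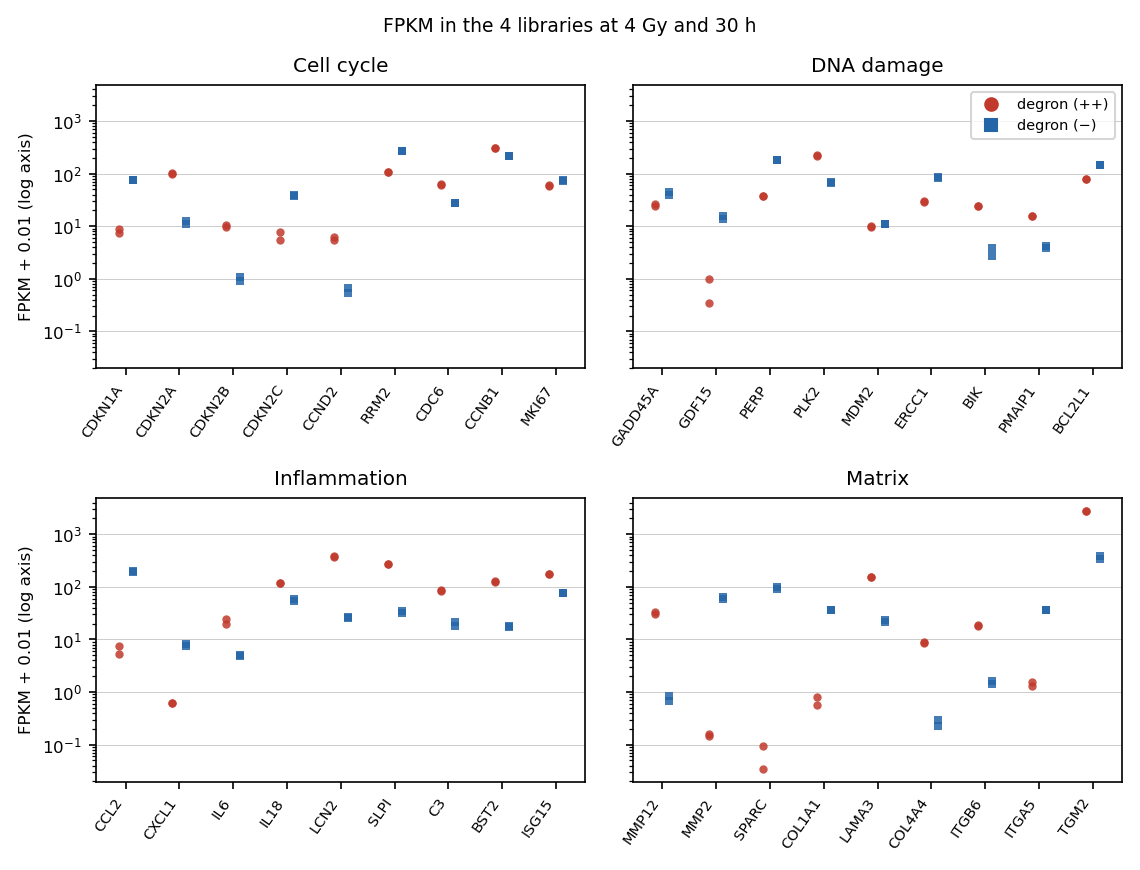
Each point is the FPKM of a gene in 1 library, with 0.01 added, on a log axis. Red circles are the 2 degron (++) libraries and blue squares the 2 degron (−) libraries at 4 Gy and 30 h. In every gene shown but MDM2, the populations differed past the threshold, and SPARC, at 0.0555 FPKM on average in degron (++) and 96.0 in degron (−), shows the widest gap.

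Genes of inflammation differed strongly and in a pattern that depended on the group. Of 110 tested genes of 146 listed, 98 (89.1%) passed the threshold, against 80.4% of all genes, and 62 (56.4%) differed at least 2-fold, against 27%. There were 62 higher and 36 lower in degron (++), with a median log2 difference of 0.48, and after TPM rescaling 55 higher and 40 lower, with a median of 0.24. The 36 genes not tested were below the filter on FPKM, among them TNF, CXCL10 and CCL5. Some tested genes passed the filter through 1 population alone, as CX3CL1 did through degron (−). Their direction was set by the filter, so these shares are in part set by it.

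All 12 tested genes of epithelial defence and the acute phase, of 17 listed, were higher in degron (++) and at least 2-fold, with a median log2 difference of 2.35. A gene that passed the filter on FPKM through degron (++) alone, as DEFB1 did, could only be higher there, so the count is in part set by the filter. LCN2, which withholds iron from bacteria, had 368 and 389.9 FPKM in degron (++) and 26.2 and 25.8 FPKM in degron (−), a log2 difference of 3.82 (SE 0.10, adjusted p = 5.54e-10). PTGES, the synthase of prostaglandin E, had 315 and 311 FPKM against 28.5 and 29.7 FPKM, and the protease inhibitor SLPI 272 and 274 FPKM against 31.4 and 35 FPKM. The antimicrobial peptide DEFB1 had 12.9 and 16.5 FPKM against 0 and 0.979 FPKM, the acute-phase protein SAA1 11.4 and 14.6 FPKM against 0.981 and 1.29 FPKM, and the complement component C3 85.8 and 85.3 FPKM against 18.1 and 21.3 FPKM. In these 6 genes the libraries of the populations did not overlap, as in 90.2% of all genes.

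Chemokines, which call in leukocytes, were mostly low, and 15 of 22 listed were not tested. Of the 7 tested, 2 were higher and 4 lower in degron (++). CCL2, which draws monocytes, had 5.19 and 7.34 FPKM in degron (++) and 202 and 193 FPKM in degron (−), a log2 difference of -4.79 (SE 0.27, adjusted p = 1.26e-07). CX3CL1 was listed at 0 in both degron (++) libraries and had 42.5 and 42.5 FPKM in degron (−), and the neutrophil attractant CXCL1 had 0.602 and 0.613 FPKM against 8.29 and 7.36 FPKM. CXCL16 was higher in degron (++), with 18.7 and 16.2 FPKM against 3.74 and 4.5 FPKM. IL8, another neutrophil attractant, had 2.06 and 3.65 FPKM against 1.79 and 2.72 FPKM, so that the populations overlapped, and leaving out either degron (++) library moved its log2 difference from 0.23 to 0.53 or -0.07. CXCL5 and CCL20 lay at or under 1.38 FPKM in the 4 libraries at 30 h and were not tested.

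Of 30 tested cytokines and their receptors, 17 were higher and 8 lower in degron (++), against 39% higher and 41.5% lower of all genes. TNFRSF11B, a soluble decoy receptor, had the largest difference of them, with 112 and 113 FPKM in degron (++) and 5.2 and 7.28 FPKM in degron (−). TNFRSF21, a death receptor, had 119.6 and 119 FPKM against 22.9 and 23.6 FPKM. IL6 had 24 and 19.7 FPKM against 4.85 and 5.12 FPKM, a log2 difference of 1.93 (SE 0.13, adjusted p = 4.39e-07). The 4 tested cytokines of the IL1 family in the list were higher in degron (++), IL1A by 1.12, IL1B by 1.23, IL18 by 1.04 and the antagonist IL1RN by 1.77 on the log2 scale. IL18 was the most abundant of these 4, with 117 and 116 FPKM against 58.3 and 54 FPKM. The growth factor of macrophages CSF1 was lower, with 12.6 and 12.1 FPKM against 46.7 and 47.7 FPKM.

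Of 23 tested genes of NF-kB signalling, 8 were higher and 14 lower in degron (++), against 39% and 41.5% of all genes, with a median log2 difference of -0.55. The lower genes included the inhibitor NFKBIB, with 42.8 and 42.6 FPKM in degron (++) and 199.5 and 205 FPKM in degron (−), and the ubiquitin ligases BIRC2, with 17.5 and 17.8 FPKM against 71.1 and 71 FPKM, and BIRC3, with 12 and 12.7 FPKM against 58.7 and 55.7 FPKM. The adaptor TRAF1, the adhesion molecule ICAM1 and the mitochondrial dismutase SOD2, which NF-kB induces, had log2 differences of -2.38, -1.06 and -1.08. The inhibitor NFKBIA was lower by less, with a log2 difference of -0.55 (SE 0.05, adjusted p = 3.45e-06). Higher in degron (++) were TNFAIP2, at 119 and 124 FPKM against 36.1 and 38.5 FPKM, and the feedback inhibitor TNFAIP3, at 8.9 and 9.48 FPKM against 5.32 and 5.3 FPKM. The subunit NFKB1 had a log2 difference of 0.29, which was 0.02 after TPM rescaling. The list holds activators, inhibitors and targets, so its median does not give a direction of NF-kB activity.

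Interferon-stimulated genes were mixed, with 23 of 38 tested higher and 10 lower in degron (++), against 39% and 41.5% of all genes, and a median log2 difference of 0.48. BST2 (tetherin), which holds enveloped viruses on the cell surface, had 130.3 and 124 FPKM in degron (++) and 17.3 and 18.2 FPKM in degron (−), a log2 difference of 2.77 (SE 0.11, adjusted p = 7.67e-09). The ubiquitin-like modifier ISG15 had 175 and 177 FPKM against 76.5 and 74.9 FPKM, and UBE2L6, the enzyme that conjugates it, 108 and 108 FPKM against 22.4 and 23.8 FPKM. The RNA sensor OAS1 had 20.9 and 20.4 FPKM against 3.09 and 3.76 FPKM and its relative OAS3 54.2 and 54.1 FPKM against 21.6 and 22.5 FPKM. The antiviral GTPase MX1 was higher as well, at 2.16 and 1.71 FPKM against 0.867 and 0.601 FPKM. All these lay on the higher side in degron (++).

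On the lower side were MX2, a relative of MX1, with 0.35 and 0.214 FPKM in degron (++) and 11.2 and 9.22 FPKM in degron (−), IFITM2, which blocks entry of viruses, with 43.6 and 45.5 FPKM against 163 and 174 FPKM, and IFIT1, which binds viral RNA, with 10.5 and 10.7 FPKM against 31.4 and 30.5 FPKM. MX1 reached 1 FPKM only in degron (++) and MX2 only in degron (−), so the filter on FPKM set their opposite directions. IFI27, often the most responsive gene of the group, lay at no more than 0.219 FPKM in any of the 4 libraries.

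The promoters of these genes were searched for the core of the interferon-stimulated response element, a site of the factors that interferons activate. The motif was written GAAANNGAAA and searched on both strands, on the other as TTTCNNTTTC, in the 250 bases before each start in RefSeq on GRCh38.p14. It is present in 1061 of 35116 promoters (3.02%). Of the 38 tested interferon-stimulated genes, 29 matched a promoter, and 15 of these (51.7%) hold the motif. These were 9 of 21 genes that were higher in degron (++), 4 of 5 that were lower and 2 of 3 that did not pass the threshold, so genes with the motif lay on both sides. The sequences of 3 genes that were higher and of IFIT1, which was lower, are given to show that the same letters stand before genes of either direction. They are written on the strand of the gene, 5′ to 3′, and capitals mark the motif. A match of letters is not evidence of binding.
BST2, chr19:17405631-17405880, minus strand: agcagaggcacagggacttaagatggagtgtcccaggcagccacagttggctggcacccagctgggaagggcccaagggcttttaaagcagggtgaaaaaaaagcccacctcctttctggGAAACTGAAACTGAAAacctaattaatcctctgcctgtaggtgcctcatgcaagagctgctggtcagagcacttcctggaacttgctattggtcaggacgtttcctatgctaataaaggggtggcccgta
ISG15, chr1:1013247-1013496, plus strand: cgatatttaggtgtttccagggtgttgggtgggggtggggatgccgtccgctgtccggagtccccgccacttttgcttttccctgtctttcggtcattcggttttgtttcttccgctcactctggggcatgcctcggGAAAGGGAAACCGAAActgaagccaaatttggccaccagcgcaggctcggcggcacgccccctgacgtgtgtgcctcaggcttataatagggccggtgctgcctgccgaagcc
OAS3, chr12:112938224-112938473, plus strand: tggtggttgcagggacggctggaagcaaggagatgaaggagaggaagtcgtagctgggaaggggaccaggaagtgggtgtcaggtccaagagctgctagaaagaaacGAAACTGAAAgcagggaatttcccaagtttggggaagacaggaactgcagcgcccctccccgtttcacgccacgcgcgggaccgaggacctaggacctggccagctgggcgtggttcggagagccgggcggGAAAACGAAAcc
IFIT1, chr10:89392373-89392622, plus strand: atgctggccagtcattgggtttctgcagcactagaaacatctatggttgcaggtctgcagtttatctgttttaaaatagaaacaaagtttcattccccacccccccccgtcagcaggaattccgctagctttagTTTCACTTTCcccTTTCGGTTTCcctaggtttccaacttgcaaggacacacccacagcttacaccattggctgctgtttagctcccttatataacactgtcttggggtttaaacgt

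Genes of the extracellular matrix and its receptors had the largest share of called genes among the 4 themes. Of 102 tested genes of 143 listed, 99 (97.1%) passed the threshold, against 80.4% of all genes, and 64 (62.7%) differed at least 2-fold, against 27%. There were 52 higher and 47 lower in degron (++), and after TPM rescaling 45 and 50. Basement membrane genes were mostly higher in degron (++), while interstitial matrix genes lay on both sides. The 41 genes not tested were below the filter, among them COL1A2, COL3A1 and MMP9. Some tested genes passed the filter through 1 population alone, SPARC through degron (−) and MMP12 through degron (++). Their direction was set by the filter, so these shares are in part set by it.

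Of 19 tested basement membrane genes, 13 were higher and 6 lower in degron (++), against 39% and 41.5% of all genes, with a median log2 difference of 1.14. Chains of the laminin that anchors epithelia were higher. LAMA3 had 154 and 153 FPKM in degron (++) and 21.1 and 23.3 FPKM in degron (−), a log2 difference of 2.74 (SE 0.06, adjusted p = 1.51e-10). LAMB3 had 119 and 117 FPKM against 18.6 and 19.97 FPKM. Of the type IV collagens, COL4A4 had 8.75 and 8.61 FPKM against 0.218 and 0.287 FPKM and COL4A5 16.2 and 16.5 FPKM against 2.24 and 2.62 FPKM, while the common chain COL4A1 lay at no more than 0.21 FPKM in the 4 libraries at 30 h and was not tested. The linker NID2 was higher, with 58.1 and 56 FPKM against 11.1 and 11.7 FPKM. Lower in degron (++) were COL18A1, with 30.8 and 26.8 FPKM against 161 and 154 FPKM, and LAMC3, listed at 0 in both degron (++) libraries and at 7.28 and 8.39 FPKM in degron (−). The named and tested genes of the list did not overlap between the populations, as in 90.2% of all genes.

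Of 24 tested genes of the interstitial matrix, 11 were higher and 13 lower in degron (++), with a median log2 difference of -0.66, and 19 differed at least 2-fold. Among the lower genes were several collagens and their companions. COL1A1 had 0.809 and 0.559 FPKM in degron (++) and 36.7 and 36.5 FPKM in degron (−), COL5A2 0.043 and 0.05 FPKM against 37.2 and 40.4 FPKM, and COL6A1 3.65 and 3.02 FPKM against 15.8 and 15.9 FPKM. LTBP2, which binds fibrillin, had 0.601 and 0.635 FPKM against 65.3 and 63 FPKM, and SPARC was described above. CTGF, a matricellular protein, was lower too, with 25.6 and 24.3 FPKM against 147 and 145 FPKM. In contrast, fibronectin (FN1) was higher in degron (++), with 17.1 and 14.1 FPKM against 1.21 and 1.2 FPKM and a log2 difference of 2.91 (SE 0.10, adjusted p = 3.65e-09). So were the proteoglycan LUM, with 14.2 and 13.8 FPKM against 0.29 and 0.567 FPKM, the thrombospondin THBS1, with 437 and 422 FPKM against 81.5 and 88.3 FPKM, and EFEMP1, a fibulin, with 306 and 308 FPKM against 35 and 36.5 FPKM. TNC lay at no more than 0.207 FPKM in the 4 libraries at 30 h.

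Enzymes that cross-link or cut the matrix also split. The transglutaminase TGM2 was among the most abundant genes of the theme, with 2817 and 2746 FPKM in degron (++) and 342 and 382 FPKM in degron (−), a log2 difference of 2.94 (SE 0.07, adjusted p = 5.61e-10). The lysyl oxidases LOXL1 and LOXL2 were lower in degron (++), with log2 differences of -1.62 and -1.23. The collagen hydroxylase P4HA3 (-1.28) was low in both populations, with 0 and 0.041 FPKM in degron (++) and 1.49 and 1.45 FPKM in degron (−). It passed the filter through degron (−) alone, which set its direction. LOX itself lay between 0.715 and 1.26 FPKM in the 4 libraries at 30 h and was not tested. Of 27 tested proteases and inhibitors, 17 were higher and 10 lower, with a median of 0.93. MMP12 had 33.3 and 30.8 FPKM in degron (++) and 0.662 and 0.848 FPKM in degron (−), a log2 difference of 4.24 (SE 0.16, adjusted p = 8.91e-09), and the membrane protease MMP14 had 70.01 and 63.6 FPKM against 12 and 12.2 FPKM. The gelatinase MMP2, which MMP14 activates, had the opposite direction, with 0.152 and 0.133 FPKM against 62.9 and 58.2 FPKM and a log2 difference of -5.75 (SE 0.06, adjusted p = 5.89e-12). In the plasminogen system, the receptor PLAUR was higher, with 59.4 and 59.7 FPKM against 13.2 and 13.4 FPKM, while its ligand urokinase (PLAU) was lower, with a log2 difference of -0.8. The serpin SERPINB5 (maspin) was higher, by 2.64, the shedding protease ADAM19 lower, by a log2 difference of -2.65, and TIMP1 had one of -0.2.

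Of 20 tested integrins and other receptors, 5 were higher and 12 lower in degron (++), with a median log2 difference of -0.44. The higher ones included ITGB4, which binds the epithelial laminin in hemidesmosomes, with 58.2 and 55.5 FPKM in degron (++) and 6.97 and 7.88 FPKM in degron (−), and ITGB6, which activates latent TGF-beta, with 18.8 and 18.3 FPKM against 1.44 and 1.6 FPKM and a log2 difference of 2.96 (SE 0.09, adjusted p = 1.73e-09). ITGA6, the partner of ITGB4, had a log2 difference of 0.10 (SE 0.07, adjusted p = 0.196), which turned to -0.18 (adjusted p = 0.114, limma) after TPM rescaling. The fibronectin receptor ITGA5 was lower, with 1.53 and 1.27 FPKM against 37 and 36.6 FPKM and a log2 difference of -3.98 (SE 0.09, adjusted p = 2.86e-10), opposite to that of FN1. ITGB3 was listed at 0 in both degron (++) libraries and had 3.54 and 3.96 FPKM in degron (−). The hyaluronan receptor CD44, used as a stem cell marker in pancreatic cancer, was lower, with 147 and 146 FPKM against 352 and 348 FPKM and a log2 difference of -1.25 (SE 0.04, adjusted p = 1.35e-09). These values cover all forms of CD44, since FPKM were given for a symbol and not for a splice form. By flow cytometry, the study reports more cells with both a CD44 variant and CD133 on their surface in degron (++). RNA of all forms of CD44 is another measure and does not bear on that result.

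The difference between the populations was then compared between 30 h and 48 h at the same dose of 4 Gy. A change can come from the level at either time, so it does not by itself mark a trait of the earlier time. The difference at 30 h minus the difference at 48 h passed the threshold for 458 genes (3.66%), of which 386 (3.08%) were above and 72 (0.575%) below 0 (limma). At an unadjusted p under 0.05 there were 2300 genes. The count was 250 after TPM rescaling, 260 when the other 4 libraries were kept out of the fit and 273 without the filter. It was 399 without degron (−) replicate 1 at 48 h, and 126 to 253 without any other 1 of these 8 libraries. The genes are thus named with less certainty than those of the 30 h comparison. Of the 458 genes, 103 also changed past the threshold against the unirradiated libraries at 48 h, a comparison given below.

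The genes with the wider difference at 30 h were genes of degron (++) cells whose level in degron (−) cells was lower at 30 h than at 48 h. Without small RNA genes there were 378 of them. Of these, 369 (97.6%) were higher in degron (++) at 30 h, against 49% of all genes. In 360 (95.2%) both degron (−) libraries at 30 h lay below both at 48 h, against 28.7% of all genes, and in 214 (56.6%) both degron (++) libraries at 30 h lay above both at 48 h, against 23.5%. The same libraries gave the difference and these counts, which are therefore a description. In bulk samples, fewer cells of a type and less RNA per cell cannot be told apart. Of the 70 genes with a lower value at 30 h, 65 (92.9%) were lower in degron (++) at 30 h than at 48 h, against 21.2% of all genes, and 56 (80%) were higher in degron (−), against 27.1%.

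**Figure D4:**
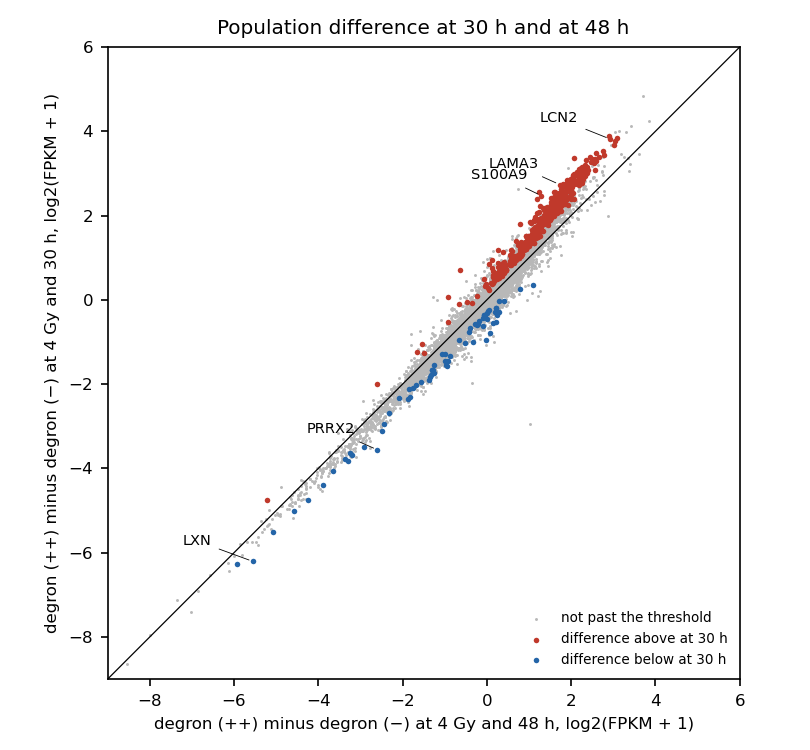
Each point is a gene, placed by its log2 difference between degron (++) and degron (−) cells at 48 h (x axis) and at 30 h (y axis), both at 4 Gy and on the log2(FPKM + 1) scale. Small RNA genes are left out. Most genes lie along the line of equal difference. Red points, such as LCN2 and LAMA3, had a difference at 30 h above that at 48 h past the threshold, and blue points, such as LXN, one below it. The red points gather among genes higher in degron (++).

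The chains of the epithelial laminin were among the genes whose difference was wider at 30 h. LAMA3 had 21.1 and 23.3 FPKM at 30 h and 38.8 and 42.8 FPKM at 48 h in degron (−), but 154 and 153 FPKM and 137 and 137 FPKM in degron (++). Without irradiation, degron (−) cells had 25 and 23.7 FPKM at 48 h, so that of the 3 conditions 4 Gy at 48 h stood highest. Its difference at 30 h exceeded that at 48 h by 1.01 (SE 0.08, adjusted p = 0.000765). LAMB3 had 18.6 and 19.97 FPKM at 30 h and 36.9 and 42 FPKM at 48 h in degron (−), with a change in the difference of 0.95 (SE 0.09, adjusted p = 0.0025). In degron (++), LAMB3 had 119 and 117 FPKM and 119.9 and 125 FPKM, so the change in the difference came with the level in degron (−). Without irradiation, degron (−) cells had 20.9 and 18.9 FPKM of LAMB3 at 48 h, near the level at 4 Gy and 30 h. NID2 changed by 0.96 (SE 0.08, adjusted p = 0.000804). These 3 genes stayed past the threshold in every alternative, including each library left out. Of the 102 tested matrix genes, 20 were past it, all of them above 0, against 3.08% of all genes. Nearly all genes above 0 (97.6%) were higher in degron (++) at 30 h. Of the matrix genes, 35 were at least 2-fold higher there, against 12.1% of all genes. The share above 0 is therefore not shown to be a trait of matrix genes.

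Of the 10 markers listed as ductal, 4 changed past the threshold above 0, against 3.08% of all genes, among them EPCAM, KRT7 and CDH1. KRT8, KRT18, KRT19 and KRT13 did not pass it. At 30 h, 6 of the 10 markers were at least 2-fold higher in degron (++), against 12.1% of all genes. The share above 0 is therefore not shown to be a trait of ductal markers. EPCAM had 29.9 and 31.9 FPKM at 30 h, 44.8 and 52.8 FPKM at 48 h and 37.4 and 37.6 FPKM at 48 h without irradiation in degron (−), and 201 and 205, 195 and 196 and 179 and 176 FPKM in degron (++). KRT7 had 133 and 144, 233 and 273 and 199 and 173 FPKM in degron (−). The changes in the difference between 30 h and 48 h at 4 Gy were 0.69 (SE 0.09, adjusted p = 0.00729) for EPCAM, 0.96 (SE 0.13, adjusted p = 0.00698) for KRT7 and 0.76 (SE 0.08, adjusted p = 0.0025) for CDH1. CDH2, the mesenchymal cadherin that was higher in degron (++), changed by 0.79 (SE 0.12, adjusted p = 0.0104), so the pattern was not one of epithelial genes alone. TGM2 changed by 0.89 (SE 0.10, adjusted p = 0.0043) and had 342 and 382 FPKM at 30 h and 594 and 673 FPKM at 48 h in degron (−). Without irradiation, degron (−) cells had 542 and 493 FPKM of TGM2 at 48 h.

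Of the 110 tested inflammation genes, 15 were past the threshold above 0, against 3.08% of all genes, and 3 below. At 30 h, 42 of the 110 were at least 2-fold higher in degron (++), against 12.1% of all genes. The share above 0 is therefore not shown to be a trait of inflammation genes. C3 changed by 0.87 (SE 0.11, adjusted p = 0.00549) and TNFRSF21 by 0.63 (SE 0.06, adjusted p = 0.00149). S100A9, a subunit of the antimicrobial calprotectin, had 6.2 and 7.22 FPKM at 30 h and 16.7 and 17.2 FPKM at 48 h in degron (−), a change of 1.18 (SE 0.15, adjusted p = 0.00657), and LCN2 had 26.2 and 25.8 FPKM and 47.5 and 61.6 FPKM. BST2 had 17.3 and 18.2 FPKM at 30 h and 25.5 and 33 FPKM at 48 h in degron (−), with a change of 0.85 (SE 0.15, adjusted p = 0.0191). Without irradiation, degron (−) cells at 48 h had 27.2 and 26.8 FPKM of LCN2, near the level at 4 Gy and 30 h. They had 24.3 and 22.7 FPKM of C3 and 26.3 and 22.7 FPKM of BST2. IFITM2, which was lower in degron (++), had a change of -0.52 (SE 0.07, adjusted p = 0.0101). The largest changes above 0 past the threshold, small RNA genes left out, were those of IL37, an anti-inflammatory member of the IL1 family, of TFF1, a trefoil peptide of mucus, and of LY6D, a surface protein of keratinocytes, at 1.34, 1.32 and 1.28 on the log2 scale. IL37 was low throughout, with 1.27 and 1.99 FPKM in degron (++) and 0.535 and 0.657 FPKM in degron (−) at 30 h.

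Few genes of the cell cycle or of DNA damage changed between the times, at or under the share of all genes of 3.66%. Of 114 cell cycle genes, 3 were past the threshold above 0 and 1 below, and of 133 DNA damage genes 1 was past it, BRCA1, with a change of 0.44 (SE 0.10, adjusted p = 0.0428). Of the 4 cell cycle genes, CDKN2A changed by 0.64 (SE 0.13, adjusted p = 0.0317), CDC25B by 0.30 (SE 0.07, adjusted p = 0.043), PLK1 by 0.27 (SE 0.06, adjusted p = 0.0488) and RRM2 by -0.24 (SE 0.04, adjusted p = 0.023). CDKN1A had 75.8 and 74.8 FPKM at 30 h and 67 and 61.6 FPKM at 48 h in degron (−), and 8.92 and 7.55 FPKM and 9.42 and 8.82 FPKM in degron (++), a change of -0.36 (SE 0.12, adjusted p = 0.152). Its log2 difference at 48 h was -2.69, which was not shown to differ from that at 30 h.

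Against the unirradiated libraries at 48 h, where dose and time both differ and cannot be told apart, the difference at 4 Gy and 30 h changed for 232 genes (1.85%), 161 (1.29%) above and 71 (0.567%) below 0. At an unadjusted p under 0.05 there were 2409. The count was 19 after TPM rescaling. It was also lower when any 1 of the 8 libraries compared was left out. Such a fit has 1 library in a group and less power, so this does not show that the count rests on each library. CX3CL1, listed at 0 in degron (++) at 30 h, had 42.5 and 42.5 FPKM at 4 Gy and 30 h and 23.9 and 25.6 FPKM at 0 Gy and 48 h in degron (−). CDKN1A had 64.1 and 59.7 FPKM in degron (−) and 5.82 and 6.8 FPKM in degron (++) without irradiation, a log2 difference of -3.11 at 48 h. The change in its difference was 0.06 (SE 0.12, adjusted p = 0.836). Of 114 cell cycle genes, 2 changed past the threshold above 0 against these libraries. Of 133 DNA damage genes, 1 did so below 0, against 1.85% of all genes.

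**Figure D5:**
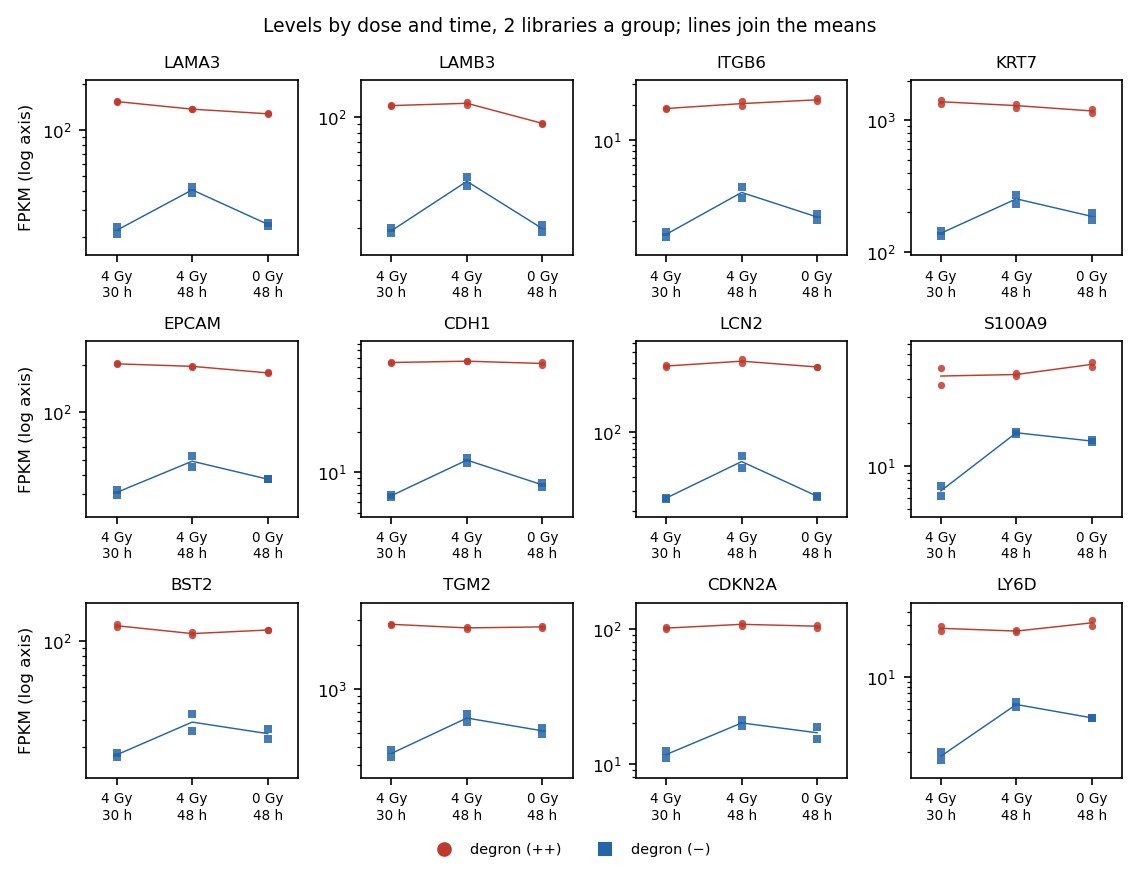
Each panel gives the FPKM of a gene on a log axis by dose and time, with red circles for the 2 degron (++) libraries and blue squares for the 2 degron (−) libraries of each group. Lines join the means. In these 12 genes, all chosen because their difference was wider at 30 h than at 48 h after 4 Gy, both degron (−) libraries at 30 h lie below both at 48 h after 4 Gy, as in LAMA3, while the degron (++) levels move less.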

How the data were processed

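RNA was sequenced from stranded mRNA libraries of 12 samples, 2 for each of 6 combinations of population, dose and time, of which 4 at 4 Gy and 30 h are described here. The values the authors deposited are FPKM, 1 per library for every gene symbol, without counts. The submitters' processing notes name the build hg19 and the tools TopHat2 2.1.1, Bowtie2 2.2.8, SAMtools 0.1.18 and Cuffdiff 2.2.1, without their roles. FPKM are scaled per library, and the share of the reads that MIR622 takes is unknown. The steps between the lowest values gave a read depth, relative to degron (++) replicate 1 at 30 h, of 1.15 for its replicate 2 and of 1.16 to 1.23 for the degron (−) libraries at 30 h.

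Kept were genes that reached 1 FPKM in 2 or more of the 4 libraries. A gene that did so only in the libraries of 1 population has its direction set by this filter, in every list. The log2(FPKM + 1) values of all 12 libraries were fitted with 6 group means in limma 3.58.1 (R 4.3.3), with a variance trend, moderated tests and Benjamini-Hochberg adjustment over 12520 genes. The fit had 6 residual and 3.24 prior degrees of freedom. The difference between the populations at 30 h was tested, as was its change against each group of libraries at 48 h. A difference of 2-fold is 1 on this log2 scale. Samples were grouped by their labels. Same-numbered libraries did not deviate together (r across genes of 0.0413 at 30 h, and of -0.104 to 0.195 over all pairs of groups), so the numbers were not taken as pairs. The code was tested on simulated data. Tables and figures were made with Python 3.11.15, numpy 2.4.6, pandas 2.3.3 and matplotlib 3.10.9.

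The genes described are the 10 largest rises and 10 largest falls past the threshold without overlap of the libraries and with a mean of at least 5 FPKM in 1 population, fixed members of each list with its 4 largest differences, and the 5 largest changes between 30 h and 48 h in each direction. Small RNA genes and Y-linked genes were left out of these, and some listed genes are not reported here. THBS1, EFEMP1, OAS3, NID2, COL4A5, IFITM2, CDK6, MCM4, COL18A1, CTGF, PLAUR and TNFAIP2 were added after their values were seen, as were the 4 promoters shown. The lists and rules were chosen with earlier results of these data known. Promoters were matched by symbol to RefSeq sequences on GRCh38.p14, which is not the build of the expression values. Alternatives were a pseudocount of 0.1, no filter, a filter of 5 FPKM, quantile normalization, rescaling to equal sums (TPM), no variance trend, a replicate block, only the libraries compared, and each library left out.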

Additional observations from a re-analysis of the deposited data

Results flagged for a closer look

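A total of 70 changes of the difference between degron (++) and degron (−) cells passed the threshold among the named genes, each tested as an interaction in limma with adjusted p between 0.000765 and 0.0494. Each value is the log2 difference at 4 Gy and 30 h minus that of the other time or dose, from 2 libraries a group. A positive value means that degron (++) stood higher relative to degron (−) at 30 h. At 4 Gy, against 48 h, the basement membrane and its receptors gave LAMA3 1.01, LAMB3 0.95, NID2 0.96, COL4A5 0.56, ITGB4 0.71, ITGB6 0.70 and CD44 0.24. Other matrix genes gave TGM2 0.89, LOXL2 0.42, SERPINB5 0.88, THBS1 0.67, EFEMP1 0.78, PLAUR 0.39 and SPOCK2 0.75. Of these, CD44 and LOXL2 were lower in degron (++), so their difference was narrower at 30 h.

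Genes of epithelial identity and their counterparts gave EPCAM 0.69, KRT7 0.96, CDH1 0.76, CDH2 0.79, SNAI2 0.60, ELF3 0.99, LY6D 1.28 and TFF1 1.32. Defence and inflammation genes gave LCN2 0.89, S100A9 1.18, PTGES 0.94, C3 0.87, OLR1 0.73, IL37 1.34, TNFRSF21 0.63, TNFAIP3 0.54 and BIRC2 -0.39. Interferon-stimulated genes gave BST2 0.85, UBE2L6 0.51, ISG15 0.43, OAS3 0.30 and IFITM2 -0.52, and of these only IFITM2 was lower in degron (++). Cell cycle and repair genes gave CDKN2A 0.64, CDC25B 0.30, PLK1 0.27, RRM2 -0.24 and BRCA1 0.44. Genes outside the lists gave PLEKHG2 -0.35, LXN -0.66, LETM2 1.22, PRRX2 -0.96, TM7SF2 -0.93, VMAC -0.86, LOC100130275 -0.75 and PALM3 -0.73.

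Against 0 Gy and 48 h, where dose and time both differ, the matrix and epithelial genes gave LAMA3 0.39, NID2 0.59, TGM2 0.57, SERPINB5 0.62, THBS1 0.41, EFEMP1 0.38, CD44 0.32, CTGF -0.69, EPCAM 0.46, KRT7 0.65 and LY6D 0.70. Inflammation genes gave S100A9 0.77, TNFRSF21 0.39, TNFAIP3 0.62, TRAF1 -0.70, ISG15 0.39 and IFITM2 -0.40. The replication gene RFC3 gave 0.33 and VMAC -0.77. CX3CL1 and BCL2A1, listed at 0 in both degron (++) libraries at 30 h, gave -0.78 and -0.63, values that depend on the pseudocount and are no fold change.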

How the results depend on the processing

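The number of genes that differed at 30 h was 9465 to 9525 with any 1 of its 4 libraries left out. Of 161 genes named in the report or its lists that passed the threshold at 30 h, 139 passed it with the same sign in all 12 alternatives and 9 in the 11 that could be run for them, as they were below the filter of 5 FPKM, while 13 did not pass it in some and 6 changed sign in some. With TPM rescaling the signs changed to -0.25 for MCM2, -0.10 for XRCC5, -0.16 for PRKDC, -0.10 for PARP1, -0.14 for MCL1, -0.25 for BAX, -0.18 for ITGA6, -0.00 for PSMB5 and -0.19 for PSMD1. With quantile normalization they changed to -0.12 for MCM2, 0.06 for ATR, -0.08 for BAX and -0.02 for PSMD1. With 1 library left out, MCM2 gave -0.01 to 0.08 and BAX -0.10 to 0.16, ATR gave 0.04 without degron (−) replicate 1, CDK1 gave 0.00 without degron (++) replicate 1, and IL8 gave 0.53 without degron (++) replicate 1 and -0.07 without degron (++) replicate 2. TPM rescaling gave 28 higher and 62 lower cell cycle genes and 28 higher DNA damage genes, by shifting the median of all genes.

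The change between 30 h and 48 h at 4 Gy was past the threshold for 273 genes without the filter (227 above, 46 below), for 250 with TPM rescaling (223 above, 27 below) and for 260 with only the libraries compared (232 above, 28 below). With 1 library left out it was so for 126 to 399 genes (114 to 361 above, 9 to 38 below). The change against 0 Gy at 48 h was past it for 136 genes without the filter, 118 with quantile normalization, 19 with TPM rescaling, 117 without the variance trend, 104 with only the libraries compared and 7 to 51 with 1 library left out. Some of these fits hold fewer samples or more genes by construction, and the cause was otherwise not tested. Of 70 named changes, 20 stayed past the threshold in every alternative and 0 changed sign. With the replicate block, 10002 genes differed at 30 h, 344 changed against 48 h at 4 Gy and 98 against 0 Gy, though the numbers do not pair the samples. With 2 libraries a group and no counts, small differences and genes under 1 FPKM were not resolved.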
